A study of Homo sapiens with 8 samples.

Results

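The genes described here are 30 genes of cholesterol synthesis and its control by sterol regulatory element-binding proteins (SREBPs), chosen by name: 7 of the mevalonate arm, 11 of the sterol arm, 5 of SREBP control and sterol transport, and 7 of fatty acid synthesis and desaturation. Of these, 27 had a named probe, and 26 were detected well enough to be tested among 10856 genes in all. FDPS, FDFT1 and HSD17B7 were not analysed here, and STARD4, a sterol carrier, was not detected on any of the 8 arrays. RNA was measured in SW620 cells, an established human colorectal cancer line, on 1 Illumina bead array per sample and 2 arrays per group. Cells were given Y15 at 4 uM or left untreated, or were transfected with either HAS3 siRNA or a scrambled sequence, and all were kept for 24 h. Y15 is a compound that inhibits focal adhesion kinase, and HAS3 is a synthase of the matrix polysaccharide hyaluronan. In the study's design, untreated cells were the control for Y15 and scrambled cells the control for HAS3 siRNA, and the aim was to find genes that respond to both. The labels do not say whether the 2 arrays of a group came from separate cultures, so p-values cover only the difference between those arrays, which could be technical.

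Cells make cholesterol from acetyl-CoA in a relay of enzymes. The mevalonate arm builds isoprenoid units, and the sterol arm turns squalene into lanosterol and lanosterol into cholesterol. SREBP-2, encoded by SREBF2, drives most genes of both arms, while SREBP-1, encoded by SREBF1, is best known for driving fatty acid synthesis. When membranes are rich in sterol, INSIG proteins hold SCAP and its SREBP cargo in the endoplasmic reticulum. When sterol runs low, SCAP carries the SREBPs to the Golgi, where proteases release the part that enters the nucleus. SREBPs act on promoters together with NF-Y, which binds CCAAT boxes, and Sp1, which binds GC boxes. In colorectal cancer cells, as in other dividing cells, the pathway supplies sterol for new membranes.

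The promoters of the genes that the results turn on most are printed to show how they differ in CCAAT boxes, the letters bound by NF-Y. HMGCS1, SQLE, MSMO1 and NSDHL rose in both comparisons of the study, and SREBF1 fell in both. Windows are shown for HMGCS1, MSMO1, NSDHL and SREBF1, and no promoter was listed for SQLE. Each sequence is the 250 bases before a RefSeq transcript start in assembly GRCh38.p14, read 5′ to 3′ on the strand of the gene, with CCAAT in capitals on either strand (ATTGG on the other). For HMGCS1, which has several listed starts, the more upstream window is shown. The windows are chr5:43313413-43313662 on the minus strand for HMGCS1, chr4:165327419-165327668 on the plus strand for MSMO1, chrX:152830813-152831062 on the plus strand for NSDHL and chr17:17836987-17837236 on the minus strand for SREBF1.
HMGCS1: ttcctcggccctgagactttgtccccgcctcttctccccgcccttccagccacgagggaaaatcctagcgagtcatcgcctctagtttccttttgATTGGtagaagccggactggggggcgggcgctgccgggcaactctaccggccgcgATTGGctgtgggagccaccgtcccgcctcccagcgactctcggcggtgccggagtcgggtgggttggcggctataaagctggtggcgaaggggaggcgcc
MSMO1: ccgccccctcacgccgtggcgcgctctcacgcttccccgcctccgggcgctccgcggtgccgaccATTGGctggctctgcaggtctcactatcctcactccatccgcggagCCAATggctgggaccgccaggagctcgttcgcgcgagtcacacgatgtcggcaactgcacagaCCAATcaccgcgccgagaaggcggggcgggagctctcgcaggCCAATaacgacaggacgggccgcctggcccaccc
NSDHL: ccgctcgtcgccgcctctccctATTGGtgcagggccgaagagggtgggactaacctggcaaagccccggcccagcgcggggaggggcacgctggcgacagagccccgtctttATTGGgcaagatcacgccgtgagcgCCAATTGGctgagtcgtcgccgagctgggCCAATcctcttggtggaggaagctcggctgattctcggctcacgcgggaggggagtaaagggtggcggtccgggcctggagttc
SREBF1: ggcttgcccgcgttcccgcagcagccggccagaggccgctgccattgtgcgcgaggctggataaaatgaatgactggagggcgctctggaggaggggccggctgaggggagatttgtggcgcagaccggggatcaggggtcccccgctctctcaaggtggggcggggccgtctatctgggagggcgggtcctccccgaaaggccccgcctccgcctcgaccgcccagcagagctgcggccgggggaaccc

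The NSDHL window held 5 matches to CCAAT, of which a pair on opposite strands share bases, the MSMO1 window 4, the HMGCS1 window 2, and the SREBF1 window 0. The window of the other listed HMGCS1 start, chr5:43313182-43313431 on the minus strand, held 0. Among other genes that fell with Y15, the MVD window held 3, those of LSS and TM7SF2 1 each, and that of PMVK 0. The ACACA windows held 0, 1 and 2. Among other genes that rose with Y15, EBP had 3, INSIG1 1, SC5D 1 in each window, and IDI1 0, 3 and 2. MVK, which passed with HAS3 siRNA but not with Y15, had 5. Numbers of matches were not tested against the changes. The RefSeq table listed promoters for 26 of the 30 genes, 35 promoters in all. CCAAT on either strand occurred in 23 of these 35 (65.7%), against 32% of all 35116 listed promoters. GGGCGG, the GC box bound by Sp1, occurred in 31 of 35 (88.6%), against 42.6% of all. TCACNCCAC, one spelling of the sterol regulatory element, occurred in 1 of 35 (2.86%), that of SREBF2, against 0.883% of all. No match to one of these motifs overlapped a match to another in the members' promoters. These matches are descriptions of the letters and not evidence of binding.

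Levels are given as log2 intensity after background correction and quantile normalization, and a log2 fold change of 1 is a doubling. The second Y15 array was dim, with a mean probe intensity of 234.1 against 352.1 to 524.7 on the other arrays. Between 12578 and 13916 of 24526 probes were detected on each array. HAS3 itself read 10.05 and 9.73 on the HAS3 siRNA arrays, against 10.49 and 10.16 on the scrambled arrays. This difference of -0.43 did not pass the limma test (adjusted p = 0.151), and the untreated arrays, at 9.32 and 9.50, were lower still. Of 12 markers of colon epithelium, 7 were detected on all arrays, among them EPCAM, KRT8, KRT18, KRT19 and CDH1, while KRT20, CDX1 and LGALS4 were detected on none. Of the 8 that were tested, 0 rose and 3 fell with Y15 (median -0.05), where 18.8% of all genes rose and 23% fell. With HAS3 siRNA 0 rose and 2 fell (median 0.03), where 3.47% of all genes rose and 4.74% fell. CDX2, a factor of intestinal identity, fell by 2.14 with Y15, and CDH1, the epithelial cadherin, fell by 1.80 with HAS3 siRNA (limma, adjusted p = 1.64e-06 and 1.36e-05). CDX2 also fell with HAS3 siRNA, by 1.07 (limma, adjusted p = 0.00133). CDH1 read 10.97 and 11.24 with Y15 against 10.85 and 10.73 in untreated cells. Among 9 leukocyte markers with a probe, PTPRC, CD3E, CD3D, ITGAM and NKG7 were detected on no array. No fibroblast marker of 8 and 1 endothelial marker of 6, PECAM1, was detected on all arrays. The summed intensity of the leukocyte markers was 283 to 318 on the Y15 arrays against 143 to 147 on the untreated arrays, mainly from CD68, which rose by 1.79 (limma, adjusted p = 7.84e-06). The summed intensity of the hepatocyte markers was 636 to 737 on the HAS3 siRNA arrays against 260 to 276 on the scrambled arrays, mainly from SERPINA1, which rose by 2.26 (limma, adjusted p = 8.12e-06), with APOA1, TTR, TF and CYP3A4 detected on none. The part of these shifts in the results below was not tested. In bulk RNA, fewer cells expressing a gene and less RNA per cell cannot be told apart.

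With Y15, 8 of the 26 genes tested rose (30.8%) and 6 fell (23.1%). Of all 10856 genes, 41.8% passed the same threshold of a Benjamini-Hochberg adjusted p under 0.05 (18.8% up and 23% down), so the share of members that fell was close to that of all genes. The median log2 fold change of the members was 0, against -0.03 over all genes. The rises lay in the sterol arm (5 of 9 genes), the mevalonate arm (2 of 6) and INSIG1, and the falls were spread over all 4 groups. The arrays of the 2 groups did not overlap for 20 of the 26 genes, against 67.8% of all genes. With Y15, 10 of them were higher and 10 lower, against 31.1% and 36.7% of all genes. The calls of NSDHL, SQLE, MVD and SCAP depended on the dim second Y15 array. Without it their changes were 0.33, 0.39, -0.40 and -0.61, against 0.47, 0.38, -0.71 and -0.32 with it. Of all genes called with Y15, 45% were higher. Under median centring of all probes 12.7% were higher, with 501 of the 10856 genes up and 3429 down. There 2 members (HMGCS1 and SC5D) rose and 7 fell. Under median centring of detected probes 62.7% were higher, with 2848 genes up and 1691 down, and 8 members rose and 5 fell.

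In the mevalonate arm, HMGCS1, which condenses acetyl-CoA and acetoacetyl-CoA to HMG-CoA, read 10.30 and 10.01 on the Y15 arrays, against 8.51 and 8.90 on the untreated arrays. Both Y15 arrays were well above both untreated arrays. The rise was 2.73-fold (log2 1.45 ± 0.16, SE; n = 2 arrays per group; limma, adjusted p = 3.36e-05). IDI1, which interconverts the isoprenoid building blocks, read 7.74 and 7.71 with Y15 against 6.86 and 7.36 in untreated cells, and rose by 0.62 (limma, adjusted p = 0.0126). Without the first untreated array its difference was 0.37 and did not pass (adjusted p = 0.128). The 2 enzymes acting in turn on phosphorylated mevalonate fell. PMVK, phosphomevalonate kinase, read 6.44 and 6.53 on the Y15 arrays against 7.54 and 6.96 on the untreated arrays, with no overlap, and fell by 0.77 (limma, adjusted p = 0.00465). MVD, the decarboxylase that follows it, read 5.87 and 5.26 with Y15 against 6.51 and 6.03 in untreated cells, a gap smaller than the distance between the Y15 arrays. It fell by 0.71 (limma, adjusted p = 0.0156), and without the second Y15 array the change was -0.40 and did not pass (adjusted p = 0.127), nor did it without the first untreated array (-0.47, adjusted p = 0.151). ACAT2, the thiolase that starts the pathway, and MVK, mevalonate kinase, differed by 0.20 and -0.24 and did not pass.

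In the sterol arm, MSMO1, NSDHL and EBP, which act on the methyl groups and double bonds of the sterol nucleus, rose, as did SC5D, which acts after them. SC5D, which introduces a double bond into lathosterol, read 9.15 and 9.66 on the Y15 arrays, against 7.42 and 8.15 on the untreated arrays. The groups were far apart although the untreated arrays differed from each other by more than those of most members. SC5D rose 3.07-fold (log2 1.62 ± 0.22, SE; n = 2 arrays per group; limma, adjusted p = 0.000156). EBP, a sterol isomerase, read 9.84 and 10.27 with Y15 against 9.03 and 9.0 in untreated cells, and rose 2.06-fold (limma, adjusted p = 0.000497). MSMO1, the methylsterol oxidase, read 9.60 and 9.03 with Y15 against 8.48 and 8.51 in untreated cells, a rise of 0.82 (limma, adjusted p = 0.00274). A second MSMO1 probe rose by 1.11, and another probe, for a different transcript and near background, differed by -0.15 and did not pass.

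NSDHL, the dehydrogenase that follows MSMO1, and SQLE, the squalene epoxidase at the head of the arm, rose less. NSDHL read 8.15 and 8.42 on the Y15 arrays against 7.79 and 7.84 on the untreated arrays and rose by 0.47 (limma, adjusted p = 0.0254). SQLE read 9.41 and 9.40 with Y15 against 9.02 and 9.02 in untreated cells, and rose by 0.38 (limma, adjusted p = 0.0319). The groups did not overlap for either gene. Under median centring of all probes, which placed the median of all genes at -0.31, the values were -0.05 for NSDHL and -0.10 for SQLE. SQLE did not pass when any 1 of the 4 arrays of the comparison was left out, with values of 0.38 to 0.39 and limma adjusted p-values of 0.0735 to 0.0932. NSDHL did not pass without the second Y15 array (0.33, adjusted p = 0.147), the first untreated array (0.44, adjusted p = 0.1) or the second untreated array (0.49, adjusted p = 0.0683).

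TM7SF2, a sterol reductase whose step is shared with another enzyme, and LSS, which closes the rings to make lanosterol, fell. TM7SF2 read 7.76 and 7.91 on the Y15 arrays, against 8.89 and 9.08 on the untreated arrays, a fall of 2.22-fold (log2 -1.15 ± 0.14, SE; n = 2 arrays per group; limma, adjusted p = 7.86e-05). LSS read 8.54 and 8.21 with Y15 against 9.07 and 8.92 in untreated cells, with no overlap, and fell by 0.62 (limma, adjusted p = 0.00571). A second LSS probe, for another transcript and nearer to background, differed by 0.03 and did not pass (adjusted p = 0.915). CYP51A1, which removes a methyl group from lanosterol, differed by 0.40 (adjusted p = 0.0602), and DHCR7, which makes cholesterol itself, by -0.11 (95% interval -0.40 to 0.17).

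Among the control genes, INSIG1 and SREBF1 moved apart. SREBF1 read 8.46 and 8.26 on the Y15 arrays, against 9.56 and 9.41 on the untreated arrays. Both Y15 arrays were well below both untreated arrays, and SREBF1 fell 2.18-fold (log2 -1.12 ± 0.15, SE; n = 2 arrays per group; limma, adjusted p = 0.000144). A second SREBF1 probe fell by 1.0 (adjusted p = 0.0101). INSIG1, itself an SREBP target, read 6.01 and 5.55 with Y15 against 5.26 and 5.07 in untreated cells, and rose by 0.62 (limma, adjusted p = 0.0125). It did not pass without the first Y15 array (0.39, adjusted p = 0.0927) or the second untreated array (0.52, adjusted p = 0.0841). SREBF2 differed by 0.03 (95% interval -0.33 to 0.38) and SCAP by -0.32, and neither passed. Without the second Y15 array the difference of SCAP was -0.61. SREBF2 read 5.50 and 5.33 with Y15 against 5.59 and 5.19 in untreated cells. The lowest detected levels were 4.79 and 4.93 on the Y15 arrays and 4.76 and 4.83 on the untreated arrays. SREBF2, and INSIG1 in untreated cells, were thus near background, where a change can read smaller than it is.

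In the fatty acid group, ACACA, the acetyl-CoA carboxylase that makes malonyl-CoA, read 8.98 and 9.08 on the Y15 arrays, against 9.61 and 9.66 on the untreated arrays. It fell by 0.61 (limma, adjusted p = 0.00405). The other 6 genes did not pass. Their log2 differences ran from -0.34 for FASN, fatty acid synthase, to 0.22 for ELOVL6, an elongase, with ACLY (ATP citrate lyase), SCD (stearoyl-CoA desaturase), FADS1 and FADS2 (fatty acid desaturases) between them. FADS2 was detected on 6 of the 8 arrays, ACAT2 on 7 and the other tested genes on all 8.

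**Figure D1:**
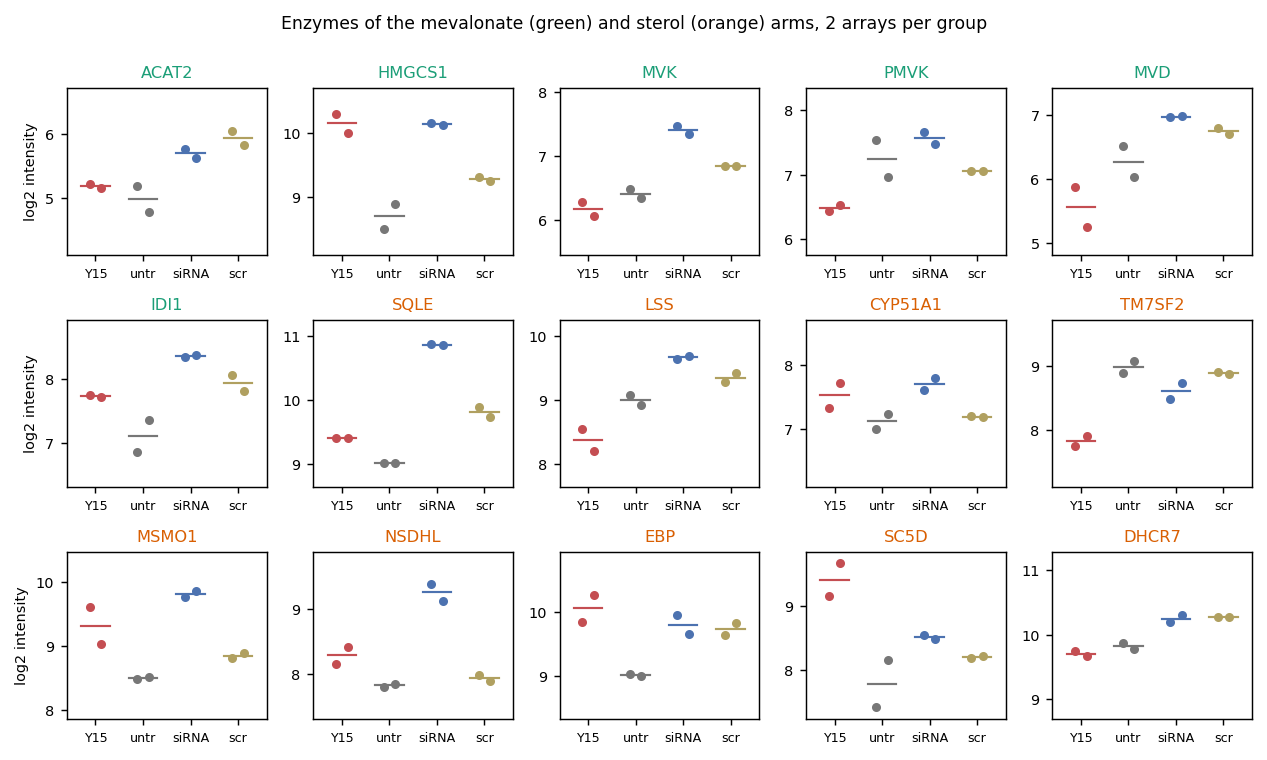
Log2 intensity (vertical axis) of the 15 tested enzymes of the mevalonate and sterol arms in cells given Y15, untreated cells (untr), cells with HAS3 siRNA (siRNA) and cells with the scrambled sequence (scr). Points are arrays, lines are means of 2 arrays, and the axis span is the same in each panel but its position is not. SQLE and NSDHL are highest with HAS3 siRNA, and SC5D with Y15.

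**Figure D2:**
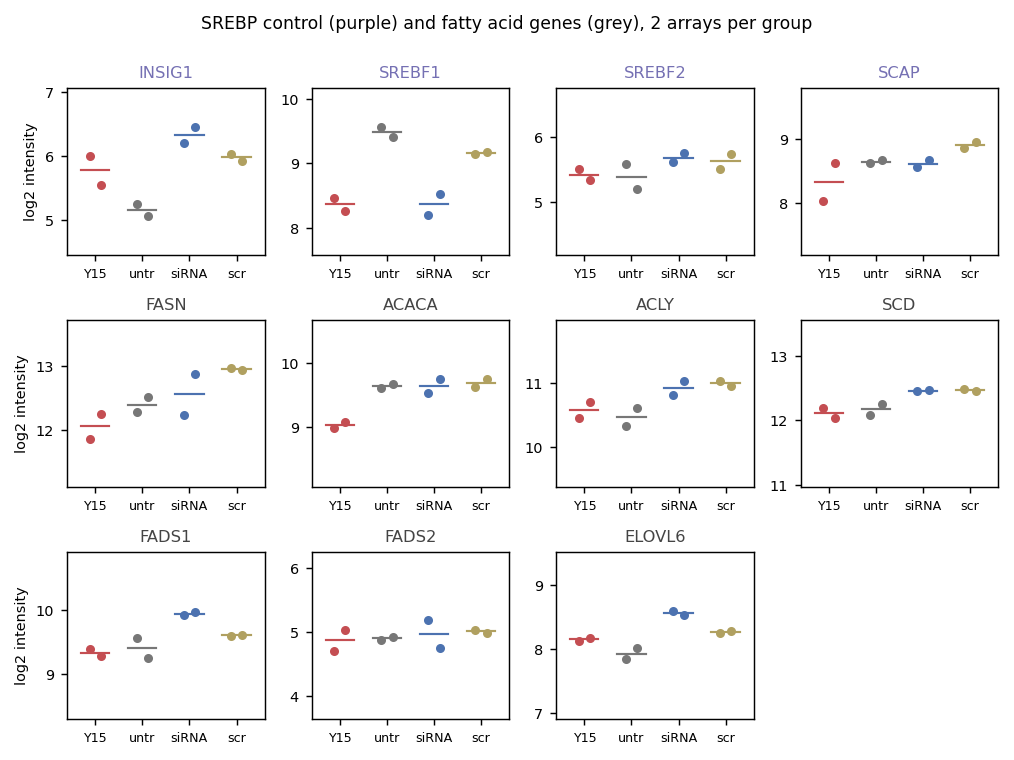
Log2 intensity (vertical axis) of the 11 tested genes of SREBP control and of fatty acid synthesis and desaturation, in the same layout (points are arrays, lines are means of 2 arrays). SREBF1 is low in cells given Y15 and in cells with HAS3 siRNA, each against its own control.

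With HAS3 siRNA, against the scrambled sequence, the genes that rose were all enzymes of the 2 arms of cholesterol synthesis. Of 26 genes, 5 rose and 1 fell, where 8.22% of all genes passed (3.47% up and 4.74% down). The 5 were HMGCS1 and MVK of the mevalonate arm and SQLE, MSMO1 and NSDHL of the sterol arm, and the gene that fell was SREBF1. The median over the 26 genes was 0.25, against 0.01 over all genes. Over the 15 enzymes of the mevalonate and sterol arms it was 0.42, and over the 7 fatty acid genes -0.05. The arrays of the 2 groups did not overlap for 19 of the 26 genes, against 57.6% of all genes. With HAS3 siRNA, 14 of them were higher and 5 lower, against 30% and 27.6% of all genes. Of all genes called, 42.3% were higher. Under median centring of all probes 62.5% were higher, with 202 genes up and 121 down, and 4 members rose and 0 fell. Under median centring of detected probes 33.1% were higher, with 177 genes up and 357 down, and 4 members rose and 1 fell.

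NSDHL read 9.40 and 9.13 on the HAS3 siRNA arrays, against 7.98 and 7.89 on the scrambled arrays. It rose 2.51-fold (log2 1.33 ± 0.15, SE; n = 2 arrays per group; limma, adjusted p = 0.00021). SQLE read 10.87 and 10.85 with HAS3 siRNA against 9.89 and 9.73 with the scrambled sequence, and rose 2.07-fold (log2 1.05 ± 0.13, SE; limma, adjusted p = 0.000412). For both genes the distance between the groups was several times that between arrays of a group.

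MSMO1 read 9.76 and 9.85 on the HAS3 siRNA arrays against 8.81 and 8.89 on the scrambled arrays, and rose by 0.96 (limma, adjusted p = 0.00493), with 0.79 by its second probe. HMGCS1 read 10.16 and 10.13 with HAS3 siRNA against 9.32 and 9.25 with the scrambled sequence, a rise of 0.86 (limma, adjusted p = 0.00582). MVK read 7.46 and 7.35 with HAS3 siRNA against 6.84 and 6.84 with the scrambled sequence, a rise of 0.57 (limma, adjusted p = 0.0244). All 3 stood clear of the scrambled arrays, although MVK did not pass when any 1 of the 4 arrays of the comparison was left out, HMGCS1 without either HAS3 siRNA array or the second scrambled array (0.83 to 0.87, adjusted p 0.05 to 0.0674), nor MSMO1 without the second HAS3 siRNA array (0.91, adjusted p = 0.0554). Fewer members passed without either HAS3 siRNA array or the second scrambled array, and the share of all genes there is not given.

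SREBF1 read 8.19 and 8.53 on the HAS3 siRNA arrays, against 9.14 and 9.17 on the scrambled arrays, and fell by 0.80 (limma, adjusted p = 0.00671). The 2 HAS3 siRNA arrays were both below the scrambled arrays but differed from each other by more than the scrambled arrays did. A second SREBF1 probe differed by -0.22 and did not pass (adjusted p = 0.691), and the call did not hold for the mean of both probes or under median centring of all probes. SREBF1 also did not pass when the first HAS3 siRNA array was left out (-0.63, adjusted p = 0.1) or the second scrambled array (-0.78, adjusted p = 0.0649). INSIG1 differed by 0.35 (95% interval -0.03 to 0.72), SREBF2 by 0.06 and SCAP by -0.29. SREBF2 was near background here too, at 5.61 and 5.75 with HAS3 siRNA and 5.51 and 5.74 with the scrambled sequence.

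The other 10 enzymes of the mevalonate and sterol arms did not pass. CYP51A1 differed by 0.51 (adjusted p = 0.0741), PMVK by 0.52 (adjusted p = 0.105) and IDI1 by 0.42 (adjusted p = 0.173), each with both HAS3 siRNA arrays above both scrambled arrays. LSS, SC5D and MVD differed by 0.32, 0.31 and 0.22, and EBP and DHCR7 by 0.07 and -0.02. ACAT2 and TM7SF2 were lower by sign, at -0.24 and -0.28. Of the 7 fatty acid genes, none passed by limma, and 1, FADS1, was higher at an unadjusted p under 0.05, by 0.34.

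**Figure D3:**
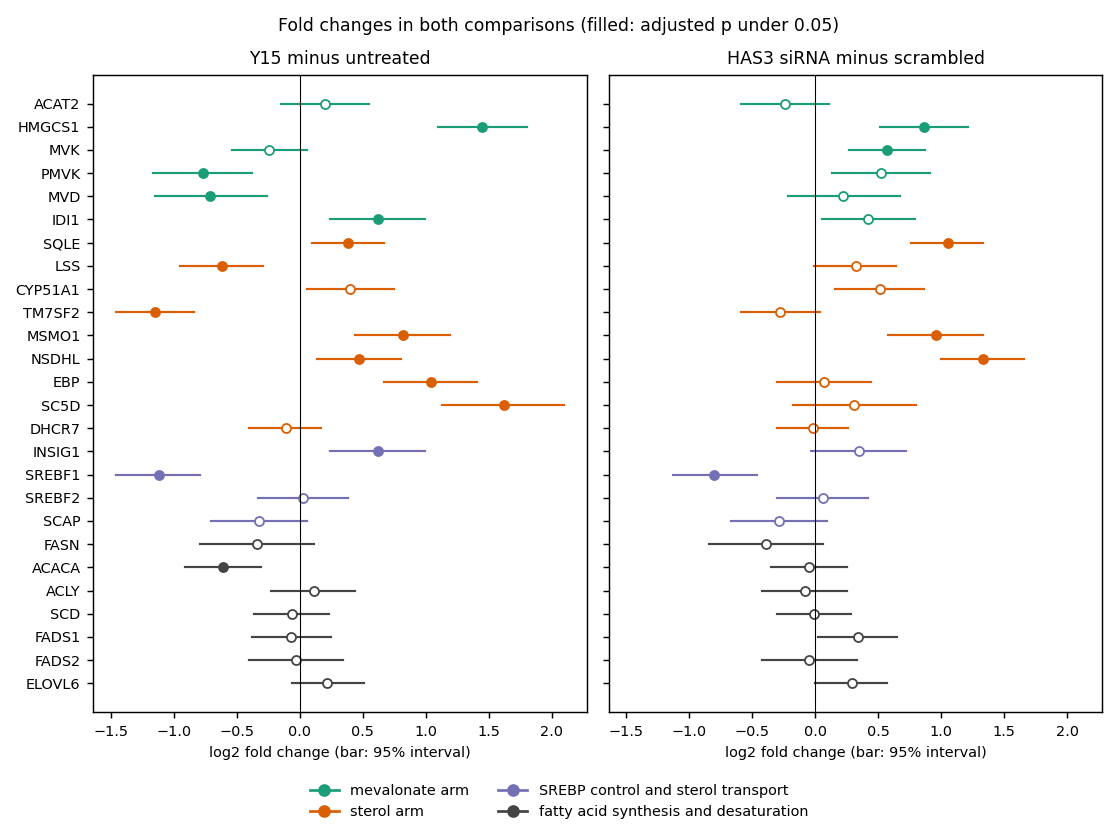
Log2 fold change (horizontal axis) of the 26 tested genes for Y15 minus untreated and for HAS3 siRNA minus scrambled, coloured by role. Points are estimates from the model, bars are 95% intervals, and filled points passed an adjusted p under 0.05. HMGCS1, SQLE, MSMO1 and NSDHL are filled on the right of 0 in both panels and SREBF1 on the left in both.

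The study asked for genes that respond to both inhibitions. The 2 comparisons share no arrays, though their tests share 1 estimate of spread per gene. Of the 26 genes, 5 passed in both, where 4.51% of all genes tested did. These 5 were 35.7% of the members called with Y15 and 83.3% of those called with HAS3 siRNA. Over all genes, those called in both were 10.8% of the calls with Y15 and 54.9% of the calls with HAS3 siRNA. HMGCS1, SQLE, MSMO1 and NSDHL rose in both, SREBF1 fell in both, and 0 passed in opposite directions. Each of the 5 lost 1 of its calls when a single array was left out, SQLE and NSDHL the call with Y15, and HMGCS1, MSMO1 and SREBF1 the call with HAS3 siRNA. By sign alone, 11 genes were higher in both, 8 lower in both and 7 opposite. Across the 26 genes, which are not independent, the log2 fold changes correlated at r = 0.53 (Spearman rho 0.52), against -0.01 over all genes.

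The sizes of the responses differed for 10 genes, by the test of the difference itself, where 30.8% of all genes passed (13.8% up and 17% down). EBP and SC5D stood higher in the Y15 response than in the HAS3 siRNA response, by 0.97 and 1.31 on the log2 scale. MVK, PMVK, MVD, SQLE, LSS, TM7SF2, NSDHL and ACACA stood lower in the Y15 response than in the HAS3 siRNA response, from -0.56 for ACACA to -1.29 for PMVK. Of all genes called in this test 44.7% were positive. Under median centring of all probes 10% were (339 genes positive and 3035 negative), with 0 members positive and 11 negative. Under median centring of detected probes 68.4% were (2345 genes positive and 1085 negative), with 4 members positive and 5 negative. For PMVK, the effect was -0.77 with Y15 and 0.52 with HAS3 siRNA. For HMGCS1, MSMO1, INSIG1 and SREBF1 no difference passed, with values of 0.59, -0.14, 0.27 and -0.32 and limma adjusted p-values of 0.0688, 0.7, 0.423 and 0.276.

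These genes also differed between the 2 control groups. Against untreated cells, which also serve as the control for Y15, 9 of the 26 rose with the scrambled sequence and 0 fell by limma, where 19.5% of all genes passed (8.84% up and 10.7% down). No member was lower at an unadjusted p under 0.05. The 9 were ACAT2, HMGCS1, MVK, IDI1, SQLE, EBP, DHCR7, INSIG1 and ACLY, and the median over the 26 genes was 0.35, against 0 over all genes. ACAT2 read 6.05 and 5.83 on the scrambled arrays, against 5.19 and 4.78 on the untreated arrays, and rose by 0.95 (limma, adjusted p = 0.00224). It was detected on only 1 untreated array, and 4.78 was below the lowest detected level of the second (4.83), so its baseline was near background. INSIG1 read 6.04 and 5.93 with the scrambled sequence against 5.26 and 5.07 in untreated cells, a rise of 0.82 (limma, adjusted p = 0.00673). Neither gene overlapped between the groups. In all, 20 genes were higher and 1 lower on both scrambled arrays, where 62.9% of all genes did not overlap (31.5% higher and 31.4% lower). Fewer members passed when the first untreated array or either scrambled array was left out, and the share of all genes there is not given. Of all genes called, 45.3% were higher. Under median centring of all probes 11.7% were higher, with 123 genes up and 932 down, and 1 member (ACAT2) rose. Under median centring of detected probes 61% were higher, with 904 genes up and 577 down, and 8 members rose.

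With HAS3 siRNA against the same untreated arrays, 16 of the 26 genes rose and 1 fell, SREBF1, where 26.2% of all genes passed (12.2% up and 14% down). Without overlap, 19 genes were higher and 2 lower on the HAS3 siRNA arrays, where 63.4% of all genes did not overlap (32.6% higher and 30.9% lower). In the mevalonate and sterol arms 13 of 15 enzymes rose, all but PMVK (0.32) and TM7SF2 (-0.37). SQLE, at 10.87 and 10.85 with HAS3 siRNA and 9.02 and 9.02 in untreated cells, rose 3.58-fold (log2 1.84 ± 0.13, SE; limma, adjusted p = 3.53e-06). NSDHL rose by 1.45, of which the scrambled sequence alone showed 0.12, and SQLE showed 0.79 with the scrambled sequence alone. INSIG1 rose by 1.17, IDI1 by 1.24, FADS1 by 0.54 and ELOVL6 by 0.64. Fewer members passed without either HAS3 siRNA array, and the share of all genes there is not given. Of all genes called, 46.5% were higher, against 29.2% under median centring of all probes (343 genes up and 833 down). There 8 members rose and 1 fell.

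**Figure D4:**
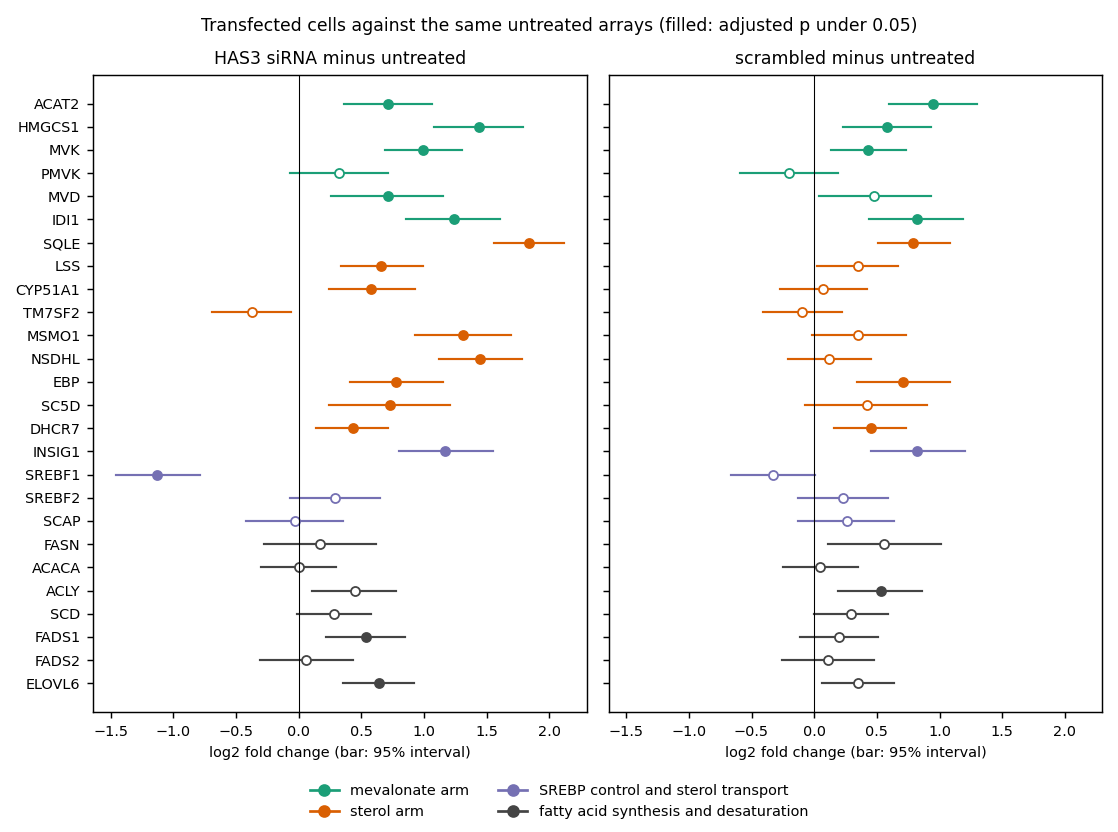
Log2 fold change (horizontal axis) of the 26 tested genes for HAS3 siRNA minus untreated and for scrambled minus untreated, coloured by role; both panels use the same 2 untreated arrays. Points are estimates from the model, bars are 95% intervals, and filled points passed an adjusted p under 0.05. Most enzymes of the mevalonate and sterol arms lie right of 0 in both panels, and SREBF1 lies left of 0 in both.

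Set against the untreated mean, the median of the 6 mevalonate genes was 0.91 and 0.83 on the HAS3 siRNA arrays, 0.57 and 0.50 on the scrambled arrays, and 0.05 and -0.09 on the Y15 arrays. The median of the 9 sterol genes was 0.75 and 0.68 with HAS3 siRNA, 0.31 and 0.42 with the scrambled sequence, and 0.33 and 0.53 with Y15. The mevalonate median thus lay above 0 on all 4 transfected arrays and near 0 on the Y15 arrays, while the sterol median lay above 0 on all 6. The 7 fatty acid genes had medians of 0.28 and 0.49 with HAS3 siRNA, 0.32 and 0.27 with the scrambled sequence, and -0.02 and -0.12 with Y15.

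**Figure D5:**
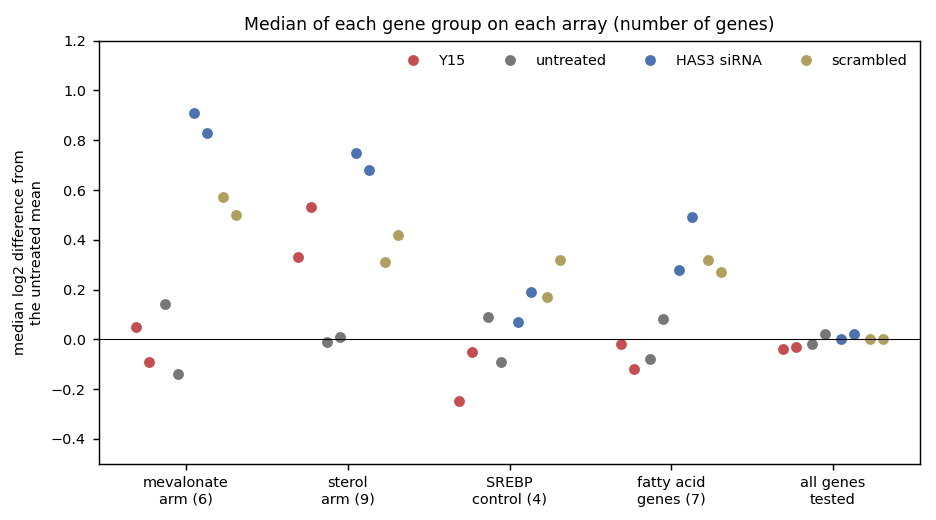
Median log2 difference from the untreated mean (vertical axis) for each role and for all genes tested (horizontal axis, number of genes in brackets), 1 point per array, coloured by group. The median of all genes stays between -0.04 and 0.02 on each array, while the mevalonate and sterol medians of the 4 transfected arrays lie between 0.31 and 0.91.

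Genes around the pathway were described from lists drawn up from general knowledge. Of 12 genes of SREBP processing and turnover, 2 rose and 1 fell with Y15 (25%, against 41.8% of all genes), and 0 passed with HAS3 siRNA by limma (8.22% of all genes did), where 2, UBE2G2 (-0.52) and ERLIN1 (0.37), had an unadjusted p under 0.05. The medians of that list were -0.15 with Y15 and 0.05 with HAS3 siRNA. NFYA, the subunit of NF-Y that contacts the CCAAT box, read 7.70 and 7.86 with Y15 against 6.69 and 6.85 in untreated cells, and rose by 1.01 (limma, adjusted p = 0.000296). It was also above the untreated arrays in transfected cells, at 7.60 and 7.33 with the scrambled sequence and 7.54 and 7.77 with HAS3 siRNA. FBXW7, which marks nuclear SREBP for destruction, rose by 0.79, and MBTPS1, the first Golgi protease to cut SREBPs, fell by 0.74. Of 12 other lipogenic genes driven by SREBPs, 4 rose and 3 fell with Y15 (58.3%), and 2 rose with HAS3 siRNA (16.7%), with medians of 0.17 and 0.19. ACSS2, which makes acetyl-CoA from acetate, read 10.17 and 10.41 on the HAS3 siRNA arrays, against 8.74 and 8.62 on the scrambled arrays. Both HAS3 siRNA arrays were far above, and ACSS2 rose 3.05-fold (limma, adjusted p = 3.87e-05).

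Of 10 genes of uptake, trafficking and esterification, 2 rose and 2 fell with Y15 (40%, against 41.8% of all genes), and the median was -0.05, against -0.03 over all genes. NPC1, which moves cholesterol out of lysosomes, read 10.56 and 10.47 on the Y15 arrays, against 8.67 and 8.65 on the untreated arrays, and rose 3.61-fold (limma, adjusted p = 1.25e-06). LIPA, the lysosomal lipase that frees cholesterol from its esters, fell by 0.62. With HAS3 siRNA 0 of the 10 passed by limma, and 2 were higher and 2 lower at an unadjusted p under 0.05, among them LIPA (0.38) and GRAMD1A (-0.42), a sterol transfer protein, with a list median of 0.05 against 0.01 over all genes. Of 5 targets of the sterol-sensing receptor LXR, MYLIP rose by 0.69 and ABCA1, the cholesterol exporter, fell by at least 1.55-fold with Y15. These were 40% of the list, against 41.8% of all genes, and the list median was -0.31. With HAS3 siRNA, MYLIP fell by 0.66, ABCA1 by at least 1.41-fold and ABCG1, another exporter, by at least 1.19-fold (limma, adjusted p = 0.0201, 0.0259 and 0.0497). These were 60% of the list, against 8.22% of all genes, and the list median was -0.47. ABCG1 read 5.01 and 5.09 on the scrambled arrays, already below the 6.43 and 6.45 on the untreated arrays. The bounds are given because ABCA1 was detected on neither array of the Y15 and HAS3 siRNA groups, and ABCG1 on neither HAS3 siRNA array.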

How the data were processed

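Biotin-labelled cRNA made from SW620 total RNA was hybridised to 8 Illumina bead arrays, per the labels' protocols. The deposited non-normalized table gives the intensity of each of 24526 probes, with a detection p-value beside it per the file headers. The intensities came from GenomeStudio (its version is not given in the sources used here), per the submitters' processing notes. The deposited series matrix holds log2 values that equal quantile-normalized log2 intensities without background correction, to within 5e-09, with a median of 5.86 on each array; genes were not centred.

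The nec function of limma corrected the background by means of the detection p-values (offset 16), and quantile normalization and log2 followed. Probes with a detection p under 0.05 on at least 2 of 8 arrays were kept (14631). Platform symbols were updated by gene identifier to RefSeq (GRCh38.p14): 1 symbol for 21834 probes, several for 0 and none for 2692. The probe of highest mean level stood for each of 10856 genes. The main model had 4 group means over all 8 arrays (lmFit and eBayes, limma 3.58.1, R 4.3.3; 4 residual and 11.8 total degrees of freedom). Tests were two-sided with Benjamini-Hochberg adjustment over all 10856 genes, and all p-values of single genes are from this fit. Where both arrays of the dimmer group were undetected, a fold is a lower bound ("at least") with regard to detection, not to the spread between arrays. It sets the brighter group's mean log2 level against a floor on each dimmer array. That floor is the lowest level of any detected probe there, or the gene's own level if that is higher. Tested on simulated data with 200 changed genes, the fit returned planted changes at their mean size. It made no call in a separate comparison without planted changes. Of planted log2 changes of 0.5 it recovered 6.5%, and of those of 1, 99%. False calls made up 18.8% of its calls at 0.5, 8.76% at 1 and 5.66% at 2, above the nominal level. The 200 changed genes are far fewer than the 4538 that passed with Y15, so these rates need not hold for that comparison. The number of arrays limits the precision.

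The genes, the other lists and the tests were chosen with earlier results of these data known. Genes named outside the 30 are, for each list, the 3 of smallest p with Y15 and the 3 of smallest p with HAS3 siRNA; HAS3 was named as the targeted gene. Alternatives covered background correction, normalization, the series matrix, the detection filter, the choice of probe, the fit, a replicate block and leaving out each array; median centring of detected probes was added after seeing the data.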

Additional observations from a re-analysis of the deposited data

Results flagged for a closer look

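The responses to Y15 and to HAS3 siRNA, each against its own control, differed for 10 genes by the limma test of the difference itself (adjusted p under 0.05 over all genes), where 30.8% of all genes passed, with values on the log2 scale as the Y15 effect minus the HAS3 siRNA effect. In the mevalonate arm these were MVK (-0.81), PMVK (-1.29) and MVD (-0.93), each lower by sign with Y15 and higher by sign with HAS3 siRNA. In the sterol arm SQLE (-0.66) and NSDHL (-0.86) rose in both comparisons, and more with HAS3 siRNA. LSS (-0.94) and TM7SF2 (-0.87) fell with Y15 and did not pass with HAS3 siRNA. EBP (0.97) and SC5D (1.31) rose with Y15 and did not pass with HAS3 siRNA. ACACA (-0.56) fell with Y15 and differed by -0.05 with HAS3 siRNA. The second Y15 array was the dimmest, and fewer members passed this test without it. The share of all genes there is not given. MVK, PMVK and TM7SF2 passed under all 21 alternatives run for them. ACACA passed under 9 of 21, MVD under 11 of 20 and SQLE under 17 of 21. EBP passed under 19 of 21, and LSS, NSDHL and SC5D under 20 of 21. Under median centring of all probes EBP and SC5D did not pass.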

How the results depend on the processing

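Of 2809 values of single members under the alternatives, 2608 kept their side of the threshold, 143 no longer passed and 56 newly passed. Changes of sign were counted only where the value passed in the main fit or under the alternative. The other 2 passed in the main fit but changed sign and no longer passed. Those 2 were NSDHL (-0.05, adjusted p = 0.884) and SQLE (-0.10, adjusted p = 0.785) with Y15 under median centring of all probes. That centring moved the median of all genes to -0.31 with Y15, 0.13 with HAS3 siRNA against scrambled, -0.15 for scrambled against untreated and -0.46 for the difference of the 2 effects, and centring on detected probes to 0.19, -0.07, 0.15 and 0.25 in the same order. Under centring of all probes 9 members passed with Y15, 1 for scrambled against untreated and 9 for HAS3 siRNA against untreated. Over all genes, 501 rose and 3429 fell there with Y15. For scrambled against untreated 123 rose and 932 fell, and for HAS3 siRNA against untreated 343 rose and 833 fell. ACACA, HMGCS1, PMVK, SC5D, SREBF1 and TM7SF2 passed with Y15 under all 22 alternatives, and NSDHL and SQLE with HAS3 siRNA against scrambled under all 22. Leaving out 1 array at a time, the members called ranged from 10 to 14 with Y15 and from 3 to 7 with HAS3 siRNA. They ranged from 2 to 11 for scrambled against untreated, from 10 to 18 for HAS3 siRNA against untreated, and from 6 to 10 for the difference of the 2 effects, where 6 passed without the first and 6 without the second HAS3 siRNA array. Where a left-out array leaves a group with 1 array, that array is assumed to vary like the other groups. The share of all genes that passed without an array is not given here, so these ranges have no background beside them. They do not show whether members lost calls more often than other genes.

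Whether the replicate numbers of the labels pair the arrays was not settled. Deviations of same-numbered arrays correlated at -0.07 to 0.27 over the 6 pairs of groups, 3 of them above 0.1. The value was 0.27 for Y15 and untreated and 0.04 for HAS3 siRNA and scrambled. With the replicate number as a block, 15 members passed with Y15 and 7 with HAS3 siRNA against scrambled. Against untreated cells 10 passed for scrambled and 18 for HAS3 siRNA, and 10 passed for the difference. The share of all genes that passed with the block is not given here, so these counts have no background beside them. With the block, CYP51A1 newly passed both with Y15 (0.40, adjusted p = 0.0358) and with HAS3 siRNA against scrambled (0.51, adjusted p = 0.0382). With 2 arrays per group and dim probes such as FADS2 and SREBF2, small differences could not be detected.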

Other observations

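Of 12 tested genes of fatty acid oxidation, 7 fell and 0 rose with Y15 by limma, where 23% of all genes fell and 18.8% rose (1 was higher and 8 lower at an unadjusted p under 0.05), and their median was -0.54, against -0.03 over all genes. ETFB, a subunit of the electron carrier of mitochondrial fatty acid oxidation, read 10.15 and 10.30 on the Y15 arrays, against 11.83 and 11.43 on the untreated arrays, and fell by 1.40 (adjusted p = 4.77e-05). ACADVL, the dehydrogenase of very long chains, fell by 1.11, and CPT2, which completes the entry of fatty acids into mitochondria, by 0.75. With HAS3 siRNA against scrambled 0 of the 12 passed by limma, 0 had an unadjusted p under 0.05, and the median was 0.06. For the list no test was run.

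Of 10 genes that use isoprenoids, 2 rose and 2 fell with Y15 (40%, against 41.8% of all genes), and with HAS3 siRNA 0 passed by limma and 0 had an unadjusted p under 0.05, with medians of -0.02 and -0.04. RABGGTB, a subunit of the enzyme that attaches geranylgeranyl groups to Rab proteins, read 10.52 and 10.39 with Y15, against 8.98 and 9.26 in untreated cells, and rose 2.52-fold (limma, adjusted p = 2.97e-05). NUS1, a subunit of the enzyme that makes the long chains of dolichol, read 5.88 and 5.46 with Y15 against 6.71 and 7.26 in untreated cells, and fell by 1.31 (limma, adjusted p = 0.000301). COQ2, which joins the isoprenoid tail to the ring of coenzyme Q, fell by 0.57.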
